A study of Mus musculus with 8 samples.

Results

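The granzymes, perforin and the proteins that pack, move and restrain them in cytotoxic granules were followed through 10 genes, Gzma, Gzmb, Gzmc, Gzmk, Gzmm, Prf1, Nkg7, Srgn, Serpinb9 and Lamp1, which were chosen by name from the 47493 genes of the deposited table. All 10 were present, and all 10 had a mean of at least 1 FPKM (fragment counts scaled by transcript length and by library depth), so that they were among the 12166 genes tested. Each also averaged at least 1 FPKM within both fractions. The RNA came from 4 female C57BL/6 mice aged 6 to 8 weeks. All of them were given 200000 B16F10 melanoma cells in the skin on day 0, 300 mg/kg of cyclophosphamide on day 3, and 2000000 T cells of Thy1.1 Pmel-1 mice, whose transgenic receptor recognizes the melanoma antigen gp100, on day 5, with 10000 IU of human IL-2 on each of 3 days. A CD4-depleting antibody (GK1.5, 200 μg) was injected weekly from day 10 for 3 weeks. On day 25 the endogenous CD8+ T cells of spleen and inguinal lymph nodes were isolated with a bead kit, the transferred cells being removed through Thy1.1, and were divided by an IL-18Rα antibody on a magnetic column into retained cells (IL-18Rαhi-enriched, 4 libraries) and cells that passed through (flow-through, 4 libraries). Both fractions therefore carry every treatment, and both are bead fractions in which other cells can remain. Mouse numbers follow the sample labels.

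Cytotoxic lymphocytes kill by releasing granules onto a target cell. Perforin forms pores in the target membrane, granzymes are serine proteases that enter through them, and serglycin, a proteoglycan, holds both in the granule core. The cell that carries this cargo keeps inhibitors of its own granzymes in the cytosol, and CD8+ T cells with effector functions are known to hold more of the cargo than naive ones.

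The flow-through and enriched libraries held 11706 to 12288 genes at 1 FPKM or more. Il18r1, which encodes the receptor used for the selection, was at 110.8 ± 3.9 FPKM (SD, n = 4) in the retained cells and 30.6 ± 7.0 FPKM in those that passed (limma adjusted p = 0.000291). None of the 8 CD8 T-cell identity genes, Cd8a, Cd8b1 and the CD3 chains among them, passed the test. Each had a positive log2 difference, with a median of 0.38, and Cd2 passed with the mouse as a block (limma adjusted p = 0.0305). Cd8b1, Cd3d and Cd247 were lower in the enriched fraction in 2 of 4 mice. The 8 genes summed to 2542 to 2724 FPKM in enriched and to 1337 to 2548 FPKM in flow-through libraries. The enriched sum was 2.037 times the flow-through sum in mouse 1 and 1.025, 1.209 and 0.999 times in mice 2 to 4. The flow-through library of mouse 1 had the lowest of these sums and stood 0.83 below the other flow-through libraries in the mean log2 level of the identity genes. It was also the lowest of the 8 libraries for 8 of the 10 granule genes, so that results are given with and without it where it matters.

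Of the 10 granule genes, 6 rose in the enriched fraction (Gzma, Gzmb, Gzmc, Gzmm, Nkg7 and Serpinb9), none fell, and Prf1, Gzmk, Srgn and Lamp1 did not pass the test. The median log2 difference of the 10 was 0.84, against -0.018 over all genes tested. Among the 12166 genes, 14.1% were called higher, 13.7% lower and 27.8% in either direction by the same test, limma on log2(FPKM + 1) with an adjusted p under 0.05. For 8 genes every enriched library lay above every flow-through library, which held for 16.4% of all genes tested, and none lay below throughout (15.9% of all). Blocking on the mouse, 7 granule genes rose, Prf1 now among them, and none fell, where 22.2% of all genes were called higher and 22.7% lower. Without the flow-through library of mouse 1 there were also 7, again with Prf1 (14.2% of all genes higher, 12.9% lower). Differences are enriched minus flow-through on the log2(FPKM + 1) scale, which understates changes of genes at low level. RNA was taken from whole fractions, so that more cells expressing a gene and more RNA per cell cannot be told apart.

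**Figure D1:**
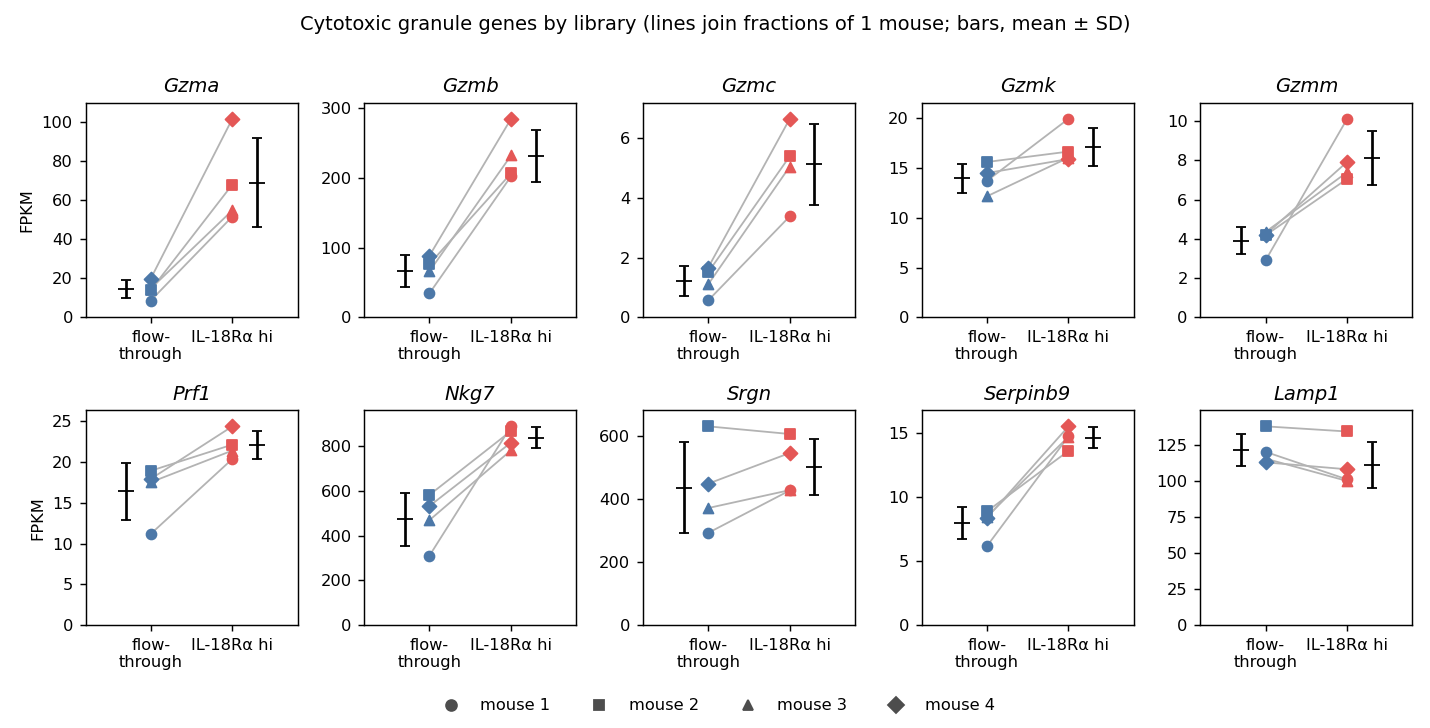
FPKM of the 10 granule genes in the 4 flow-through (blue) and 4 IL-18Rαhi-enriched (red) libraries, with a line joining the fractions of each mouse, a symbol for each mouse, and bars for the mean ± SD. Gzma, Gzmb and Gzmc separated with a wide gap between the fractions, and Srgn and Lamp1 overlapped.

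The stretches before the start sites of 5 of these genes are printed. The granzymes that rose most, Gzma, Gzmb and Gzmc, can so be read beside Gzmk and Prf1, which did not pass the main test. With the mouse as a block Prf1 passed and Gzmk did not. Gzma and Gzmk lie near each other on chromosome 13, Gzmb and Gzmc in the granzyme cluster of chromosome 14, and Prf1, the gene of the pore former, on chromosome 10. Each line holds the 250 bases upstream of the RefSeq start site (GRCm38.p6), read 5′ to 3′ on the strand of the gene. Capitals mark matches, on either strand, to the letters AGGTGT (a T-box half-site), TGTGGT (RUNX), GGAAGT (ETS), TGANTCA (AP-1), TTCNNNGAA (STAT) and TGACGTCA (CRE).
Gzma (chr13:113100982-113101231, minus strand): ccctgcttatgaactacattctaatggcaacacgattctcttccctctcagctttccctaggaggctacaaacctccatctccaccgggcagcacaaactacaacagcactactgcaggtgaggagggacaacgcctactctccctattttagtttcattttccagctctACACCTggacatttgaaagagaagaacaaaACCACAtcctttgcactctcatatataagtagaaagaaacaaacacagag
Gzmk (chr13:113180966-113181215, minus strand): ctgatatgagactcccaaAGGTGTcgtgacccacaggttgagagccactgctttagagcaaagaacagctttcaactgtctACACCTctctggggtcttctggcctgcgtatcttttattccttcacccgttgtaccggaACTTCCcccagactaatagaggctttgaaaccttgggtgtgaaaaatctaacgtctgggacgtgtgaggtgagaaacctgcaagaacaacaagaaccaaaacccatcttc
Gzmb (chr14:56262335-56262584, minus strand): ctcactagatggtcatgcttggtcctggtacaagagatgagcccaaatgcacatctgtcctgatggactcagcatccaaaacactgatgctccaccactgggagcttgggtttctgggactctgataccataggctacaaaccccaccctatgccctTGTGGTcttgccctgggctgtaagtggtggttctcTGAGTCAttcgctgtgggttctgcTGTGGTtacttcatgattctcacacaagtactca
Gzmc (chr14:56234658-56234907, minus strand): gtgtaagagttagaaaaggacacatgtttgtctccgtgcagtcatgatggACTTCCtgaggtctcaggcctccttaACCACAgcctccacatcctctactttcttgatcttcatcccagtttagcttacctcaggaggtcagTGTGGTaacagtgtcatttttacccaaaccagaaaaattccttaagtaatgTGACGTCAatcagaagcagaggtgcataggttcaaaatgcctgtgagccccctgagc
Prf1 (chr10:61297586-61297835, plus strand): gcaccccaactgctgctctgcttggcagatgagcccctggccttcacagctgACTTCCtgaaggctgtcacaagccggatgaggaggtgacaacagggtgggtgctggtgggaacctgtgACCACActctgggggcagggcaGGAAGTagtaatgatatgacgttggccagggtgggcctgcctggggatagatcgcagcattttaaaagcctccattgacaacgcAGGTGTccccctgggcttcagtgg

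The RUNX letters were found upstream of 8 of the 10 granule genes and in 8 of their 12 windows, all genes but Gzmk and Serpinb9, against 14.0% of the 32851 windows of the same length in the RefSeq table. Gzmb held them at positions -93 and -34 from its start with an AP-1 match at -58 between them, and AP-1 letters occurred in 6.75% of all windows. The T-box half-site was present upstream of 4 genes, Gzma, Gzmk, Prf1 and Nkg7 (11.8% of all windows), at -80 in Gzma and at -24 in Prf1. Windows of 4 genes held the ETS letters (19.7% of all), those of Nkg7 and Gzmm the STAT letters (7.02%), and that of Gzmc a CRE at -57 (1.55%). No matches overlapped, and a match is a string of letters, not evidence of binding.

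Gzma encodes granzyme A, a trypsin-like protease (13:113093825-113100981 of GRCm38, minus strand, GENCODE M21). Its level was 8.67, 14.0, 14.8 and 19.9 FPKM in the flow-through libraries of mice 1 to 4 and 51.8, 68.2, 54.9 and 101.9 FPKM in the enriched ones. The fractions did not overlap, and each mouse had at least 3.71 times as much in its enriched fraction. Gzma rose by 2.19 ± 0.27 (SE; 95% interval 1.57 to 2.81; limma adjusted p = 0.0016), the 7th largest increase among the 12166 genes.

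Gzmb encodes granzyme B, the aspartate-cleaving granzyme that activates caspases in target cells (14:56258838-56262260, minus strand). It measured 34.7, 76.7, 66.3 and 88.7 FPKM in flow-through libraries and 202.6, 206.8, 232.4 and 285.2 FPKM in enriched ones. All enriched libraries were above all others by a wide gap, and the flow-through library of mouse 1 was well below its 3 companions. The increase was 1.85 ± 0.27 (95% interval 1.24 to 2.46; limma adjusted p = 0.00262) with all libraries and 1.57 without that library.

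Gzmc encodes granzyme C, a protease of the same chromosome 14 cluster that is known from strongly activated T cells (14:56231441-56234656, minus strand). Its levels were low, at 0.567, 1.51, 1.10 and 1.67 FPKM in flow-through libraries and 3.38, 5.39, 5.04 and 6.64 FPKM in enriched ones, without overlap. Gzmc rose by 1.47 ± 0.22 (limma adjusted p = 0.0029). Of its 50-base stretches 3.79% were shared with Gzme, 2.49% with Gzmg and 0.355% with Gzmd, so that a small part of its reads could be assigned either way. All of those relatives, with Gzmn, were listed at 0 in every library, and Gzmf, which shares none, was at 0.522 ± 0.122 FPKM among cells that passed the column and 1.87 ± 0.64 FPKM among retained cells. It reached the filter of 1 FPKM only through the enriched fraction, so that its difference is given as a description.

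Gzmm encodes granzyme M, a protease that is abundant in NK cells (10:79689020-79695261, plus strand). Its levels were 2.91, 4.19, 4.36 and 4.22 FPKM in flow-through libraries and 10.1, 7.06, 7.40 and 7.93 FPKM in enriched ones. The fractions did not overlap, and mouse 1 had both the lowest and the highest library. Gzmm rose by 0.89 ± 0.14 (limma adjusted p = 0.00389).

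Gzmk encodes granzyme K, a trypsin-like protease linked to memory CD8+ T cells (13:113171608-113225908, minus strand, in a span that also covers Esm1, which was at means of 0.458 and 0.652 FPKM). It stood at 13.7, 15.6, 12.1 and 14.5 FPKM in flow-through libraries and at 19.9, 16.6, 16.0 and 15.9 FPKM in enriched ones. The groups did not overlap, but the gap between them was narrow, and 3 of the enriched libraries lay just above the highest flow-through library. The difference of 0.27 ± 0.10 had a 95% interval of 0.04 to 0.51 and did not pass the test (limma adjusted p = 0.080, and 0.0502 with the mouse as a block).

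**Figure D2:**
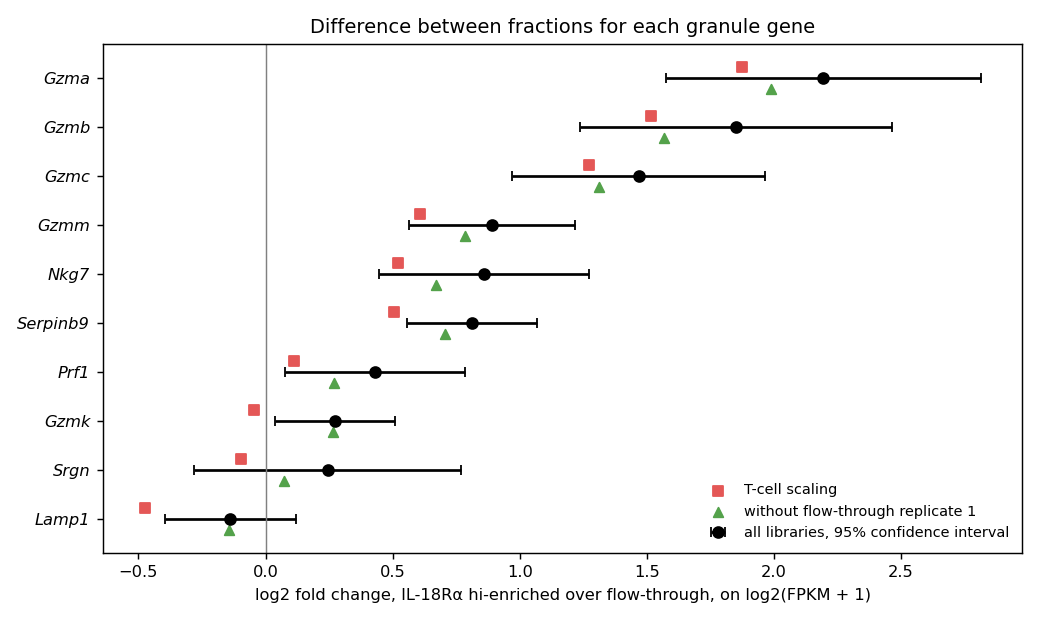
Log2 difference between fractions for each granule gene, on log2(FPKM + 1), with all 8 libraries (circles, bars for the 95% confidence interval), after scaling to T-cell identity genes (squares) and without the flow-through library of mouse 1 (triangles). Gzma, Gzmb and Gzmc stayed above 1.2 under each of them, and Gzmk and Srgn fell on either side of 0.

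Prf1, the gene of perforin, was higher in each enriched library by a small margin and did not pass the test with all libraries. Prf1 (10:61297833-61304680, plus strand) was at 11.2, 18.9, 17.5 and 17.9 FPKM in flow-through libraries and at 20.4, 22.1, 21.4 and 24.4 FPKM in enriched ones. The fractions did not overlap, but outside mouse 1 the ratio within a mouse was only 1.17 to 1.36. The difference of 0.43 ± 0.16 (95% interval 0.08 to 0.79) missed the threshold (limma adjusted p = 0.0702). It passed with the mouse as a block (limma adjusted p = 0.0186), and also without the flow-through library of mouse 1, at a smaller difference of 0.27 (limma adjusted p = 0.039).

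Nkg7 encodes a small membrane protein of cytotoxic granules that takes part in degranulation (7:43437073-43438249, plus strand), and by its mean it was the most abundant of the 10 genes in both fractions. Its levels were 310.0, 581.6, 468.8 and 531.9 FPKM in flow-through libraries and 887.9, 867.3, 781.2 and 815.4 FPKM in enriched ones. The spread seen in the flow-through was narrower in the enriched fraction, and the groups did not overlap. Nkg7 rose by 0.86 ± 0.18 (limma adjusted p = 0.0103), and its adjusted p was 0.0734 when both libraries of mouse 3 were left out, at a difference of 0.90.

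Srgn, the gene of serglycin (10:62493833-62527451, minus strand), was nearly as abundant as Nkg7 in the flow-through. Its levels were 292.3, 630.2, 371.0 and 448.4 FPKM there and 426.8, 605.9, 427.9 and 545.7 FPKM in the enriched libraries. The groups overlapped, mouse 2 was high in both fractions, and the enriched fraction was the higher one in 3 of 4 mice. The difference of 0.24 ± 0.23 was within an interval of -0.28 to 0.77 (limma adjusted p = 0.453).

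Serpinb9 encodes the inhibitor of granzyme B that shields cytotoxic cells from their own protease (13:33003250-33017957, plus strand). It was at 6.14, 8.86, 8.46 and 8.35 FPKM in flow-through libraries and at 14.7, 13.6, 14.7 and 15.5 FPKM in enriched ones. The fractions were well separated and the enriched libraries lay close together. Serpinb9 rose by 0.81 ± 0.11 (limma adjusted p = 0.00219).

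Lamp1 encodes a lysosomal membrane protein that appears on the cell surface after degranulation (8:13159161-13175338, plus strand, overlapping Grtp1). Its levels of 120.2, 137.9, 115.5 and 112.9 FPKM in flow-through libraries and 101.0, 134.3, 99.9 and 108.1 FPKM in enriched ones overlapped. The enriched fraction was the lower one in 4 of 4 mice, and the difference was -0.14 ± 0.11 (95% interval -0.40 to 0.12; limma adjusted p = 0.383).

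A second scaling changed these values. Each library was divided by its mean level of the CD8 T-cell identity genes. The factor was 0.564 for the flow-through library of mouse 1 and 0.903 to 1.077 for the other flow-through libraries. It was 1.077 to 1.147 for the enriched ones. The scaling moved the median difference of all genes to -0.324 and the share of calls that were higher from 50.8% to 36.0%. On that scale 5 of the 10 genes rose and none fell, where 4.29% of all genes were called higher and 7.64% lower, and the differences were 1.87 for Gzma, 1.52 for Gzmb, 1.27 for Gzmc, 0.61 for Gzmm and 0.52 for Nkg7. Serpinb9 was at 0.50 (limma adjusted p = 0.0596), and Gzmk (-0.046) and Srgn (-0.095) changed sign without passing the test. Prf1 was at 0.11 and Lamp1 at -0.48.

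The make-up of the granzyme pool differed as well. The 5 granzymes together measured 60.5 to 129.0 FPKM in flow-through libraries and 287.8 to 417.5 FPKM in enriched ones, a comparison per length of transcript. Gzmb was the main granzyme in both, with 65.4% ± 5.5 and 70.1% ± 2.6 of the sum (SD, n = 4). The share of Gzmk was 15.0% ± 5.2 in flow-through libraries and 5.32% ± 1.28 in enriched ones, whose ranges of 11.2% to 22.6% and 3.80% to 6.92% did not overlap. Gzma accounted for 14.3% ± 1.3 and 20.5% ± 3.4, also without overlap. Granzyme B transcripts thus stood at 4.76 ± 1.57 times the Gzmk level among cells that passed the column and at 13.8 ± 3.3 times among retained cells.

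Set against the other parts of the granule, Gzmb was 3.97 ± 0.76 times as high as Prf1 among cells that passed and 10.5 ± 1.0 times as high among retained cells. Its ratio to Serpinb9, the inhibitor, was 8.19 ± 2.06 and 15.8 ± 1.9. Neither ratio overlapped between the fractions, and no test was run on the shares or ratios. They are formed within a library and do not depend on how libraries are scaled. All 10 genes together made up 0.168% ± 0.036 of the summed FPKM of a flow-through library and 0.268% ± 0.012 of that of an enriched one.

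**Figure D3:**
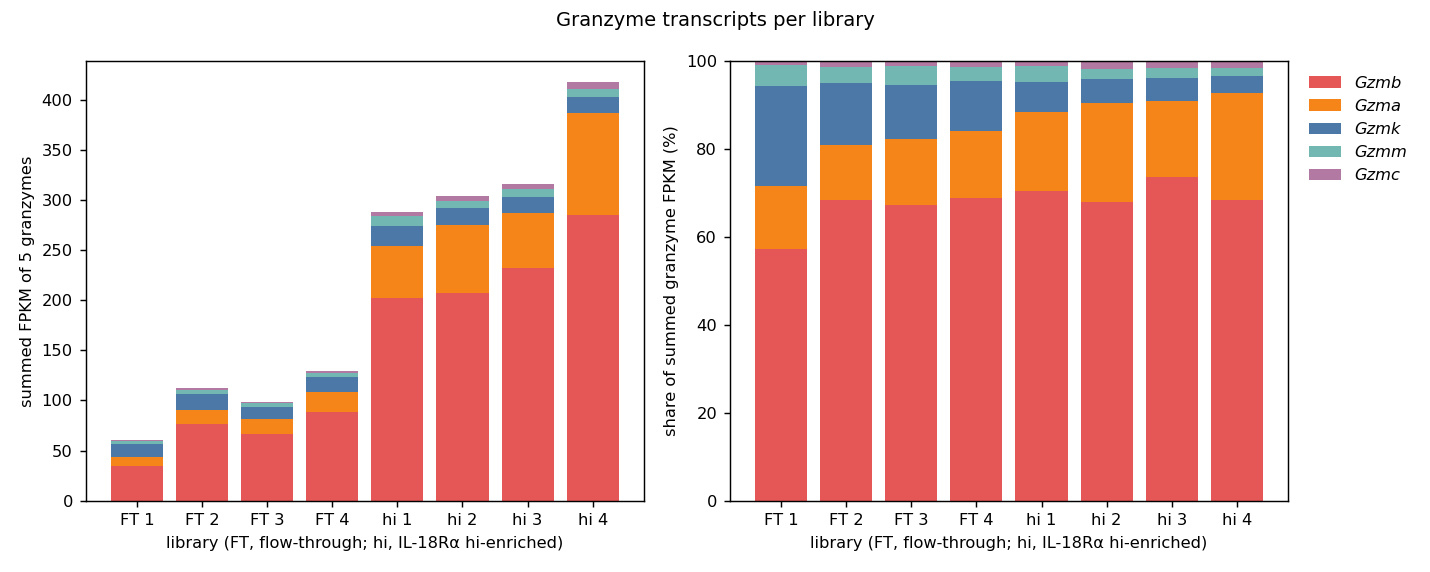
Summed FPKM of the 5 granzymes in each library (left) and the share of each granzyme in that sum in percent (right), for 4 flow-through (FT) and 4 IL-18Rαhi-enriched (hi) libraries. The sum lay at 60.5 to 129.0 FPKM in flow-through and at 287.8 to 417.5 FPKM in enriched libraries, and the Gzmk share was smaller in each enriched library than in any flow-through library.

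The genes that varied most like granzymes A and B included Klrk1 and Klrb1c. The paper counts both among natural killer cell receptors and describes these as also raised by T-cell activation. Which cells carried them was not tested. Over the 8 libraries, the genes whose centered log2 profile was closest to that of Gzmb by root mean square difference were Klrk1 (0.0956), the gene of the receptor NKG2D, Id2 (0.165) and Gm6637 (0.167). Closest to Gzma were Klrb1c (0.203), Adam8 (0.237) and Klrk1 (0.238). Gzmm came nearest to Actb, 9930012K11Rik and Pycard (0.101 to 0.110), Prf1 to Tmod3, Tpm3 and Ly9 (0.0528 to 0.0582), and Gzmk to Tma7, R3hdm4 and Snx12 (0.0572 to 0.0765). Among the 10 genes, Gzmm and Serpinb9 were the most alike (0.127), and Gzma and Lamp1 the least (1.23). Likeness describes the same libraries and fractions as the levels above.

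The machinery that moves granules was next. Of 20 genes of granule maturation and exocytosis, 19 were tested, 8 rose and 1 fell, with a median difference of 0.20. Over all genes tested 14.1% were called higher and 13.7% lower. Rab27a, a small GTPase needed for granule docking, rose from 30.2 ± 9.3 to 55.4 ± 3.5 FPKM (log2 difference 0.91, limma adjusted p = 0.0135). Its effectors of the synaptotagmin-like family rose too, Sytl2 by 1.75 from 7.09 ± 1.60 to 25.8 ± 0.6 FPKM (limma adjusted p = 0.000324), Sytl3 by 1.12 and Sytl1 by 0.90. Snap23, a SNARE protein of membrane fusion, fell by 0.33 (limma adjusted p = 0.024). After scaling to T-cell identity genes, 4 genes of this list rose and none fell, where 4.29% of all genes were called higher and 7.64% lower. Rab27a and the 3 Sytl genes were those that rose.

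Among 8 genes of granule proteases, lysosomal membrane and calcium proteins, Ctsw, a cathepsin of cytotoxic lymphocytes, rose by 0.65 (133.2 ± 36.2 to 202.5 ± 8.3 FPKM, limma adjusted p = 0.0397) and Ctsl, a lysosomal cathepsin, fell by 0.78 (9.48 ± 1.90 to 5.11 ± 1.09 FPKM, limma adjusted p = 0.0119). The median was 0.22. With 1 of 8 in each direction the list was near the 14.1% and 13.7% of all genes, and blocking on the mouse gave 3 that rose and 1 that fell, where 22.2% and 22.7% of all genes were called. Ctsw did not pass after quantile normalization or T-cell scaling (log2 differences 0.57 and 0.31).

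Serglycin carries glycosaminoglycan chains, and of 12 genes of their synthesis 11 were tested, with a median difference of 0.029. The chain-polymerizing genes Chsy1 and Chpf rose by 0.54 and 0.50, and B3gat3, which completes the linker, rose by 0.31, while B3galt6, which acts earlier in the linker, fell by 0.42. Blocking on the mouse gave 3 that rose and 3 that fell of the 11 (22.2% and 22.7% of all genes), and after T-cell scaling none rose and 2 fell, B3gat3 changing sign.

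Other intracellular serpins followed Serpinb9 in part. Serpinb6b rose from 15.4 ± 2.4 to 30.2 ± 2.6 FPKM (log2 difference 0.93, limma adjusted p = 0.00192) and Serpinb6a from 18.3 ± 1.5 to 30.8 ± 1.3 FPKM (0.72, limma adjusted p = 0.000979). Serpinb1a was at 17.4 ± 10.9 and 27.1 ± 14.5 FPKM (limma adjusted p = 0.342, and 0.000971 with the mouse as a block), and Serpinb9b was below the filter. After T-cell scaling Serpinb6b alone of them rose.

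Death ligands, which kill without granules, rose for 3 of 4 genes (14.1% of all genes tested), with a median of 0.95. Tnfsf10, the gene of TRAIL, rose by 1.25 (9.97 ± 2.52 to 24.5 ± 1.6 FPKM, limma adjusted p = 0.0021), Tnf by 0.99 and Lta by 0.90. Fasl was at 2.32 ± 0.87 and 3.90 ± 0.67 FPKM (limma adjusted p = 0.0593, and 0.0117 with the mouse as a block). After T-cell scaling 2 of the 4 rose, and Lta was the one lost.

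Of 12 regulators of cytotoxic genes, 7 rose and 1 fell (14.1% and 13.7% of all genes tested), with a median of 0.83. Tbx21, the gene of the T-box factor T-bet, rose from 16.0 ± 3.7 to 53.2 ± 5.5 FPKM (log2 difference 1.70, limma adjusted p = 0.00065). Eomes, its T-box relative, was at 13.5 ± 2.6 and 14.2 ± 0.6 FPKM, a difference of 0.08 that did not pass (limma adjusted p = 0.659). Id2, Bhlhe40 and Zfp683 rose by 1.63, 1.34 and 1.26, and Stat5a, a mediator of IL-2 signals, fell by 0.48 (limma adjusted p = 0.00908). After T-cell scaling 6 rose and none fell (4.29% and 7.64% of all genes). In all, 25 of the 65 genes of these lists, untested genes counted in, were called higher and 4 lower. Of the 25, 24 also reached 1 FPKM on average among cells that passed the column. The number called higher was 14 after T-cell scaling (4.29% of all genes) and 11 without the libraries of mouse 3 (3.67% of all genes). Leaving out any single library kept 19 of the 25 and 2 of the 4. Those lost in at least 1 such fit were Kif5b, Ctsw, B3gat3, Chpf and Lta, which had risen, Gzmf, which then fell under the filter, and Snap23 and B3galt6, which had fallen. Fewer, 11 of the 25 and 0 of the 4, were also kept whenever both libraries of a mouse were left out. Rab27a, Bhlhe40, Ctsl and Stat5a were among the genes lost in those fits.

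**Figure D4:**
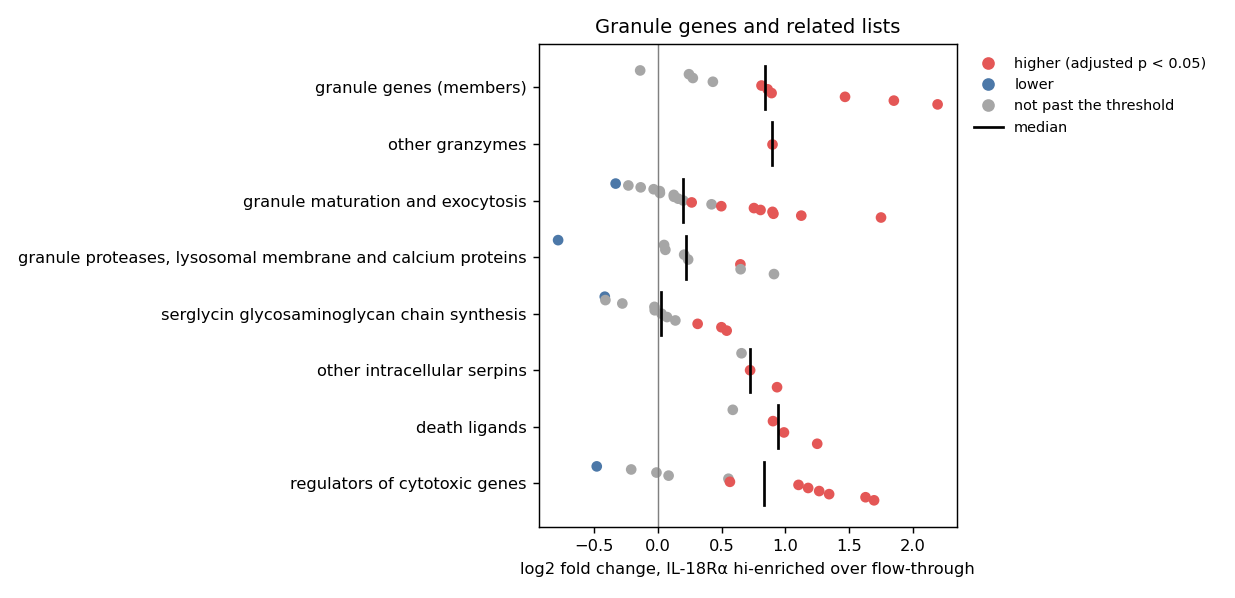
Log2 difference between fractions for each tested gene of the granule genes and the 7 related lists (rows), with genes called higher in red, genes called lower in blue, genes that did not pass the test in gray and a bar at the median of each list. The medians lay between 0.029 for glycosaminoglycan synthesis and 0.95 for death ligands.

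Granzymes and perforin are also made by NK cells, γδ T cells and other innate-like lymphocytes. Markers of these cells are therefore given beside the granule genes. Their counts can be read against the share called higher among all 12166 genes, which was 14.1% in the main test and 22.2% after blocking. Of 11 NK-cell genes 10 were tested and 7 were called higher (10 with the mouse as a block), 3 of which reached the filter only through the enriched fraction, with sums of 90.2 to 284.2 FPKM in flow-through and 244.1 to 531.5 FPKM in enriched libraries. Ncr1, which encodes a receptor of NK cells, was at 0.623, 2.15, 1.17 and 2.68 FPKM in flow-through libraries and at 7.33, 19.5, 13.3 and 27.1 FPKM in enriched ones. Whether NK cells or T cells carried it was not tested. It was highest in the enriched library of mouse 4, as were 5 of the 10 granule genes, Gzma among them. Its lowest library, the flow-through one of mouse 1, was also the lowest for 8 of the 10. Tyrobp was the most abundant gene of the list (104.1 ± 49.4 and 221.3 ± 75.3 FPKM, limma adjusted p = 0.0525, and 0.000407 when blocked on the mouse). With Fcer1g (49.0 ± 21.7 and 108.0 ± 38.9 FPKM) and Fcgr3 (17.3 ± 12.4 and 23.7 ± 14.9 FPKM) it made up most of the sums. These 3 genes are not restricted to NK cells, so that the sums do not measure NK cells alone. Of 10 γδ T-cell genes 6 were called higher (9 with the block), 1 of them admitted only through the enriched fraction, with sums of 74.4 to 104.2 FPKM and 108.5 to 229.3 FPKM. Of 3 CD4 T-cell genes, Cd40lg and Zbtb7b rose, and Cd4 itself, admitted only through the enriched fraction, was at 0.662 ± 0.423 and 3.93 ± 2.73 FPKM. The genes of invariant NKT and MAIT cells summed to 1.26 to 8.38 and 8.96 to 10.9 FPKM, and the single gene called, Zbtb16, was likewise under 1 FPKM in the flow-through. Their part in the differences of the granule genes was not tested.

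Summed markers of B and plasma cells and of cells outside the lymphocyte lineages overlapped between the fractions, but within mice several of them moved with the fraction. A list with 1 gene called higher among 6 to 9 tested was near the 14.1% of all genes tested. With the block 22.2% of all genes were called higher and 22.7% lower. Genes of neutrophils and monocytes summed to 646 to 3487 FPKM in flow-through and 908 to 4382 FPKM in enriched libraries. Of 9 tested, 1, Lyz2, was higher (with the block 4 higher and 1, Mpo, lower). The sum was 1.19 to 1.41 times as large in the enriched fraction of each mouse, but its genes did not move together. Mpo, the most abundant, was 0.798 to 0.878 times as high in the enriched fraction of 4 of 4 mice. Prtn3 was higher there in 2 of 4 mice, and Lyz2 and Elane in 4 of 4. Genes of mast cells and basophils summed to 83.8 to 169.7 and 133.3 to 285.6 FPKM, and the sums were 1.59 to 1.89 times as large within mice. Mcpt8 was higher and Kit lower among 7 tested (with the block 4 higher and 1 lower). B-cell genes summed to 25.9 to 67.2 and 41.0 to 83.7 FPKM with 1 of 6 higher (with the block 2 higher and 1 lower). Their sum was 1.001 to 1.584 times as large in the enriched fraction within mice. Plasma-cell genes (330.5 to 1322 and 598.4 to 1584 FPKM) gave no calls without the block, but with it 4 of 4 were higher, and their sum was 1.20 to 1.81 times as large in the enriched fraction of each mouse. Platelet genes (15.5 to 23.4 and 13.1 to 20.1 FPKM) and erythroid genes (204.2 to 1055 and 117.4 to 1146 FPKM) gave no calls without the block and 1 and 2 lower with it. Within mice the platelet sum was 0.668 to 0.859 times as large in the enriched fraction. The erythroid sum was 1.087 times as large in mouse 1 and 0.575, 0.665 and 0.67 times in mice 2 to 4. The part of these cells in the differences of the granule genes was not tested. Mouse 2, which had the highest myeloid sums in both fractions, also had the highest Srgn level in both, and the part of the one in the other was not tested.

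**Figure D5:**
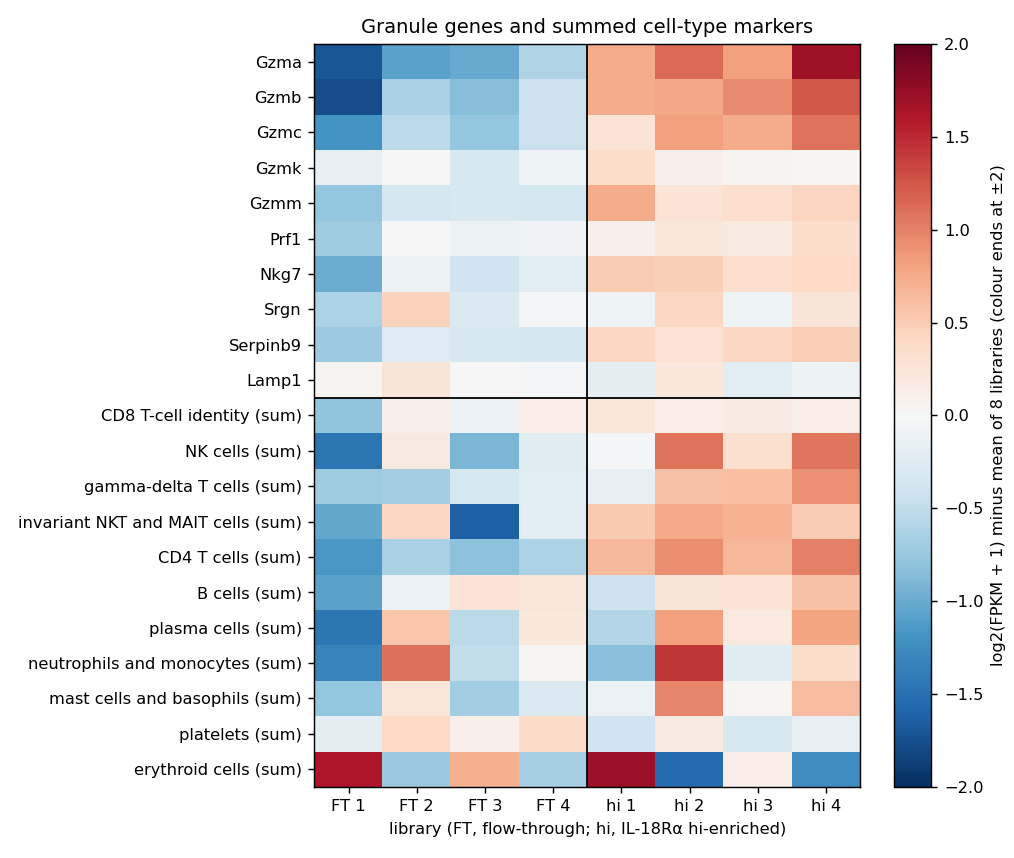
Log2(FPKM + 1) of the 10 granule genes (above the line) and of the summed markers of 11 cell types (below it), minus the mean of the 8 libraries, for the flow-through (FT) and IL-18Rαhi-enriched (hi) libraries, in color from blue (lower) to red (higher). Gzma, Gzmb and Gzmc were lower in FT and higher in hi libraries, as were the CD4 T-cell sums, and the erythroid and myeloid sums differed more between mice than between the fractions of a mouse.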

How the data were processed

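Poly(A) RNA of 4 flow-through and 4 IL-18Rαhi-enriched fractions was sequenced as stranded libraries with paired reads of 150 bases. The deposited values are FPKM, which the authors computed with Cufflinks 2.1.1 after mapping to mm10 with TopHat, correcting for multi-mapped reads and fragment bias. The release of their annotation was not given in the sources used here. FPKM carry no exact depth, so that no count model or counting interval was used. 

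The test was that of limma 3.58.1 (R 4.3.3), with a trend of variance on mean, applied to log2(FPKM + 1) of genes that averaged 1 FPKM or more. Benjamini-Hochberg adjustment ran over all of them, with a threshold of 0.05. Both fractions came from each of 4 mice, and deviations from the fraction means correlated within each mouse (r = 0.66, 0.589, 0.308 and 0.471). Between fractions of different mice r was -0.6 to 0.412. The highest of these, flow-through of mouse 2 with enriched of mouse 4, was above the value within mouse 3. The mouse was left out of the main test, which therefore does not use the pairing, and was used as a block in an alternative. Genes that differ within mice can fail the main test. Prf1, Serpinb1a, Fasl and Tyrobp did so and passed with the block. Other alternatives were pseudocounts of 0.1 and 0.5, no filter, a filter at 5 FPKM, no variance trend, quantile normalization, scaling to CD8 T-cell identity genes, and leaving out libraries. Whether strand was used in estimating FPKM was not given, so that genes overlapping another are uncertain.

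Granule genes, lists and markers were chosen with earlier results of these data known. Named are all 10 granule genes, up to 4 genes of each list past the threshold with the largest differences, genes that fell, genes of short lists, defining or abundant markers, and the 3 genes most like 5 of the members. The markers Fcer1g, Fcgr3, Lyz2, Mpo, Prtn3, Elane, Mcpt8 and Kit were named after their values were seen. So were the genes named only for a change under an alternative. Sequences came from RefSeq (GRCm38.p6), which held windows for all 10 genes, and positions from GENCODE M21.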

Additional observations from a re-analysis of the deposited data

Results flagged for a closer look

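Gzmm was at 2.91 FPKM in the flow-through library of mouse 1, while its 3 companions lay between 4.19 and 4.36 FPKM, a gap of 0.883 of the range of the group, which is past the 95% critical value of Dixon's test for 4 samples. This was the only such library among 20 groups of 4 examined (10 genes in each fraction), where chance gives about 1 in 20. The same library had the lowest level of CD8 T-cell identity genes, and the part of this in the value was not tested. Without it Gzmm rose by 0.79.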

How the results depend on the processing

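There were 20 alternatives: 8 other settings, 8 that left out 1 library, and 4, chosen after seeing the data, that left out both libraries of a mouse. Over them 5 to 7 of the 10 granule genes rose and none fell. Gzma, Gzmb and Gzmm rose under all 20 and Gzmc under the 19 that tested it, a filter at 5 FPKM having removed it. The mouse as a replicate block brought Prf1 past the threshold and changed no other call among the 10 genes, while over all genes 2705 were higher and 2763 lower, against 1720 and 1664 without it. T-cell scaling gave 522 higher and 929 lower and 14 genes of the related lists higher, and it reversed Gzmk (-0.046) and Srgn (-0.095). When libraries were left out, all genes higher ranged from 447 to 1813 and lower from 292 to 1780, and genes of the related lists higher from 11 to 28 and lower from 0 to 5. The smallest counts of all genes came without the libraries of mouse 3, which leaves 6 libraries. The cause of these changes was not tested. Depth is not recorded in FPKM, and the difference of Gzmc, at 1.21 FPKM on average in the flow-through, was 1.27 to 2.04 over its alternatives, the highest value being that with a pseudocount of 0.1.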
